A study of Mus musculus with 12 samples.

Results

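Interferon gamma, the chemokines it induces, their receptor and the enzyme Ido1 were followed through a mouse colitis series. The 10 genes were Ifng, Ifngr1, Ifngr2, Cxcl9, Cxcl10, Cxcl11, Cxcr3, Ido1, Tbx21 and Cd274. They were chosen on these same arrays, by how far the difference between dextran sulfate sodium (DSS) and untreated colon in 1 knockout exceeded that in the other knockout and in wild type (WT), and array probes were assigned to them through the accession of each probe. Probes were found for 9 of the 10 genes, among 23322 genes or transcripts tested. Cxcl11 had no matching probe and is given no value; the gene table lists it as a transcribed pseudogene in the C57BL/6J assembly.

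RNA of whole colon from male C57BL/6J mice was measured on 12 single-colour (Cy3) oligonucleotide arrays, 2 in each of 6 groups. The groups were ATF6bKO with DSS, ATF6bKO untreated (UT), ATF6aKO with DSS, ATF6aKO UT, WT titled DSS and WT titled UT. ATF6bKO lacks Atf6b and ATF6aKO lacks Atf6, a pair of membrane proteins of the endoplasmic reticulum that release transcription factors when unfolded proteins accumulate. DSS damages the lining of the colon and was given at 3 percent through the drinking water over 3 days. Its stated question is which colonic genes need one or the other protein for their response to DSS. How the knockouts were made, and the age of the mice, are not given in the sources used here. Titles and treatment fields contradict each other for the 4 WT arrays, so they are named by title, and no sign of their difference is taken as an effect of DSS. Whether the paired arrays of each group stem from different mice is not stated in the labels. The p-values below therefore reflect array-to-array spread alone, and that spread could be technical.

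Interferon gamma is secreted mainly by activated T cells and natural killer (NK) cells. It binds a receptor made of the Ifngr1 and Ifngr2 chains, which act through the kinases Jak1 and Jak2. A wide programme is then switched on, in part by the factor Irf1, that includes Cxcl9, Cxcl10, Ido1, Cd274 and the interferon-inducible GTPases. In inflamed colon, Cxcl9 and Cxcl10 draw in cells that carry Cxcr3, many of which make interferon gamma themselves. Tbx21 encodes T-bet, the transcription factor that drives Ifng in T helper 1 and NK cells.

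The level of a gene on an array is given throughout as log2 of its processed signal minus log2 of the 75th percentile of that array, so 0 is the signal of the 75th percentile. That percentile ran from 245.6 to 1187.2 intensity units, and 65.5 to 76.3% of probes were well above background per array. Each genotype lay on a slide of its own with its own scan, so slide, scan and genotype cannot be told apart, while DSS and UT arrays of a genotype share a slide. Atf6 averaged -3.16 and -3.13 in ATF6aKO DSS and ATF6aKO UT, against 0.72 to 1.18 in the other 4 groups. Its probe was still well above background on every ATF6aKO array. Atf6b averaged -5.88 and -7.06 in ATF6bKO DSS and ATF6bKO UT, with 1 of those 4 arrays above background, against -0.74 to -0.01 in the other 4 groups. One array stood apart in a set of 18 squamous epithelium genes that was drawn up after the data had been seen. The summed linear level of the 12 measured was 73 on ATF6bKO DSS replicate 2, against 9.79 on ATF6bKO DSS replicate 1 and 5.28 to 12 on the other 10 arrays. By median level, both ATF6bKO DSS arrays lay above the rest, replicate 2 at 1.51 and replicate 1 at -1.09, against -3.55 to -2.64 on the other 10 arrays. The values of the interferon genes below are therefore given for each ATF6bKO DSS array.

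Ifng had levels of -1.34 and -0.96 in ATF6bKO DSS, against -6.19 and -6.56 in ATF6bKO UT. In ATF6aKO the levels were -5.56 and -6.43 with DSS, against -7.88 and -8.27 untreated. The WT arrays gave -3.31 and -5.31 for titled DSS, against -3.87 and -4.94 for titled UT. The 2 ATF6bKO DSS arrays were thus the highest of the 12, and the 4 WT arrays came next, above every other knockout array. This probe was well above background on both ATF6bKO DSS arrays, on 1 of the 2 ATF6aKO DSS arrays and on all 4 WT arrays, but on no UT array of either knockout. Its DSS minus UT difference in ATF6bKO was 5.22 (SE 0.62), which amounts to at least 22.1-fold, since the untreated level is only a bound. In ATF6aKO the measured difference was 2.08 (SE 0.62), but with 1 of 4 arrays above background it sets no fold. RNA of whole tissue cannot tell more Ifng-producing cells from more Ifng RNA per cell.

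Ifng also has a probe that the array repeats in 10 spots, which gives a spread within each array. Of its 120 spots, 10 were left out as outliers marked by the scanner program. Before scaling, the spot median was 54.9 and 54.1 intensity units on the ATF6bKO DSS arrays, against 2 and 1.42 on the ATF6bKO UT arrays. All spots of the ATF6bKO DSS arrays lay between 50.6 and 61.6, and the highest retained spot of the ATF6bKO UT arrays was 4.6. The ATF6aKO DSS arrays had medians of 3.97 and 1.64, against 2.65 and 1.91 for ATF6aKO UT. Of the repeated probe's retained spots, 1 was above background on the ATF6aKO DSS arrays and 0 on the ATF6aKO UT arrays. A further spot, left out as an outlier on ATF6aKO UT replicate 1, read 43.8 and was above background. The WT medians, 62.2 and 11.4 for titled DSS against 38.1 and 15.4 for titled UT, came from brighter arrays. After scaling, the repeated probe read -2.59 and -2.16 in ATF6bKO DSS, against -7.59 and -7.52 in ATF6bKO UT, so both Ifng probes ordered the 4 ATF6bKO arrays alike by treatment. In ATF6aKO it read -6.84 and -7.85 with DSS, against -7.83 and -8.12 untreated. There the groups overlapped, unlike those of the other probe.

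**Figure D1:**
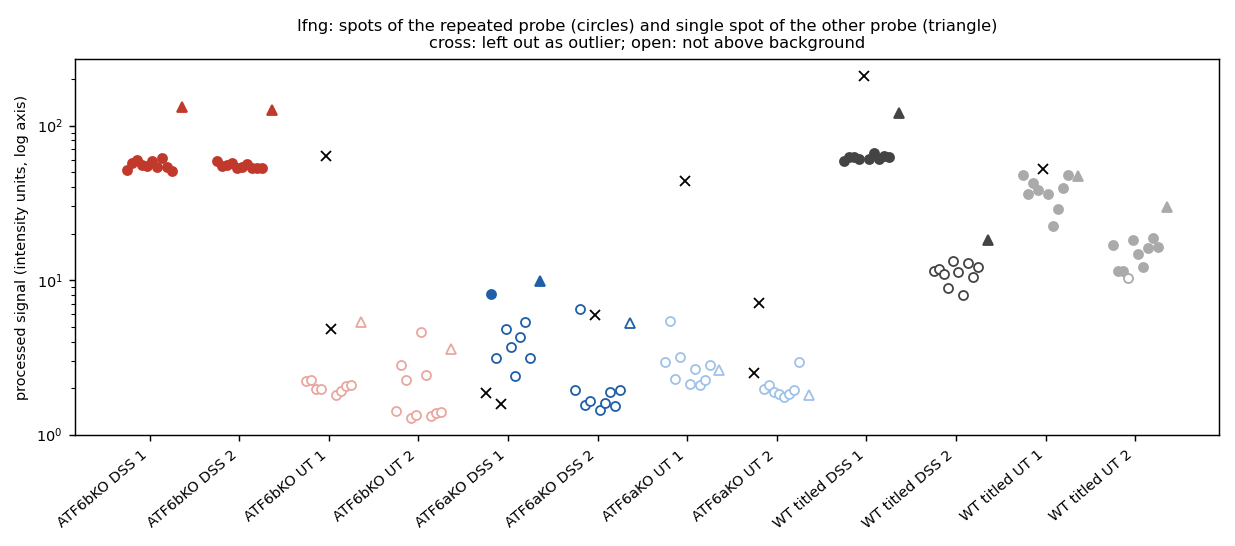
Processed signal (intensity units, log axis) of every spot of the 2 Ifng probes on each of the 12 arrays, with circles for the repeated probe, a triangle for the other probe, open symbols for spots not above background and crosses for outliers left out. Circles of the ATF6bKO DSS arrays sit between 50.6 and 61.6, those kept on the ATF6bKO UT arrays do not exceed 4.6, and 1 spot left out on ATF6bKO UT replicate 1 lies near the height of the DSS spots.

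The promoter of Ifng is shown because Ifng is the cytokine itself. It is the RefSeq sequence of the 250 bases before the start site in GRCm38.p6, chr10:118440796-118441045 on the plus strand, written 5′ to 3′ with capitals for a match to the GAS letters TTCNNNGAA, the interferon gamma-activated site.
Ifng: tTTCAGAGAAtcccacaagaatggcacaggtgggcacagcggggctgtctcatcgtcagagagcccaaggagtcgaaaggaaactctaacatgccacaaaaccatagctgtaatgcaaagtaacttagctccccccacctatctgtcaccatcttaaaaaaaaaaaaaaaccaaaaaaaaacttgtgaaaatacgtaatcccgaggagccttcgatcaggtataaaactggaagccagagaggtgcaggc
The match lies at -249 to -241 from the start site. Both strands of the promoters of 8 of the 10 genes were searched for GAS, for the interferon-stimulated response element ISRE (GAAA, any pair of bases, then GAAA) and for an NF-kB pattern (GGGA, any base, then TTTCC). No match of one pattern overlapped that of another. No promoter was given for Ido1 and Cxcl11. Across all 32851 promoters of the same length, 7.02% held the GAS letters, 2.98% the ISRE letters and 0.356% the NF-kB letters. A match is only a description of letters. Looser forms of these patterns were not searched, so a promoter without a match may still hold a site.

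Tbx21, the T-bet gene, had levels of -1.98 and -2.01 in ATF6bKO DSS, against -4.01 and -3.83 in ATF6bKO UT. Its ATF6aKO levels were -3.53 and -3.55 with DSS, against -4.66 and -3.96 untreated. WT titled DSS gave -4.26 and -4.15, against -4.40 and -4.46 for WT titled UT. The ATF6bKO DSS arrays again led, and DSS and UT arrays did not overlap in either knockout. The DSS minus UT difference was 1.92 (SE 0.22, 3.79-fold) in ATF6bKO and 0.77 (SE 0.22, 1.70-fold) in ATF6aKO.

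The receptor chains behaved otherwise. Ifngr1, which binds the cytokine, had levels of 4.65 and 4.72 in ATF6bKO DSS, against 4.56 and 4.51 in ATF6bKO UT. The other 8 arrays ran from 4.31 to 5.16, and the ATF6bKO arrays lay inside that range. Ifngr2, the signalling chain, had 3.45 and 3.41 in ATF6bKO DSS, against 3.41 and 3.32 in ATF6bKO UT. Their DSS minus UT differences in ATF6bKO were 0.15 (SE 0.29) and 0.06 (SE 0.16). In ATF6aKO these were -0.05 (SE 0.29) for Ifngr1 and -0.07 (SE 0.16) for Ifngr2. The 2 Ifngr2 probes parted in the comparison of genotypes: the dimmer one read 1.23 to 1.57 on the ATF6bKO arrays, 0.32 to 0.59 on the ATF6aKO arrays and 0.58 to 1.31 on the WT arrays.

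Cxcl9 had levels of 0.87 and 0.60 in ATF6bKO DSS, against -6.51 and -4.77 in ATF6bKO UT, the first of which was not above background. In ATF6aKO it had -2.47 and -3.33 with DSS, against -4.05 and -5.09 untreated. WT titled DSS read -1.49 and -1.53, against -0.68 and -2.36 for WT titled UT. No array outside ATF6bKO DSS reached 0, and the 2 WT groups overlapped. Cxcl9 attracts Cxcr3-bearing T cells and is among the genes most dependent on interferon gamma. Its DSS minus UT difference was 6.37 (SE 0.68) in ATF6bKO and 1.66 (SE 0.68, 3.17-fold) in ATF6aKO. With 1 of the 2 ATF6bKO UT arrays above background no fold is given for ATF6bKO, and without the other, replicate 1, the difference was 5.5.

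Cxcl10, a Cxcr3 ligand that type I interferon and NF-kB signals also induce, had levels of 2.53 and 1.97 in ATF6bKO DSS, against -2.67 and -2.59 in ATF6bKO UT. Its ATF6aKO levels were -0.19 and 0.31 with DSS, against -1.38 and -1.82 untreated. In WT they were 0.85 and 0.41 for titled DSS, against -1.48 and -1.99 for titled UT. All 3 genotypes thus showed separated pairs of arrays, which did not hold for Cxcl9 in WT. The DSS minus UT difference was 4.88 (SE 0.30, 29.5-fold) in ATF6bKO and 1.66 (SE 0.30, 3.15-fold) in ATF6aKO, and titled DSS minus titled UT was 2.37 (SE 0.30) in WT. Beside the WT value stand the opposed labels: by the treatment fields it is -2.37.

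Cxcl9, Cxcl10 and Cxcl11 lie side by side on chromosome 5, at 92321331 to 92328079, 92346638 to 92348889 and 92359544 to 92363296 of GRCm38.p6. The promoters of the measured pair are shown because these neighbours had the largest ATF6bKO differences among the chosen chemokines and receptors. They are 250 bases each on the minus strand, chr5:92348890-92349139 for Cxcl10 and chr5:92328080-92328329 for Cxcl9, from RefSeq and written 5′ to 3′, with the ISRE match in capitals.
Cxcl10: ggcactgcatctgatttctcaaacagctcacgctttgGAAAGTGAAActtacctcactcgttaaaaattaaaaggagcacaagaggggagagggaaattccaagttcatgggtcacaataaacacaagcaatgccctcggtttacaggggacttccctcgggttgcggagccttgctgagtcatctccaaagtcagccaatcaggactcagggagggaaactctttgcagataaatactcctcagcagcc
Cxcl9: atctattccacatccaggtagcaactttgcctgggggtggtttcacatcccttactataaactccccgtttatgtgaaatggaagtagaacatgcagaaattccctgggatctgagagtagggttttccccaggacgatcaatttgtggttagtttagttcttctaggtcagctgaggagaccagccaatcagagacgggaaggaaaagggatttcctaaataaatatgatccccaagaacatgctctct
The match in Cxcl10 lies at -213 to -204 from the start site, and none of the 3 patterns was found in these 250 bases of Cxcl9. Only the exact letters given above were searched, so neither promoter is shown to lack an NF-kB site. Among the other promoters searched, Ifngr2 held the NF-kB letters on its minus strand, at -75 to -66 from the start site.

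Cxcr3, the receptor of these chemokines on T and NK cells, had levels of -0.66 and -0.78 in ATF6bKO DSS, against -3.03 and -2.85 in ATF6bKO UT. With DSS, ATF6aKO had -2.04 and -2.39, against -2.79 and -2.49 untreated. WT titled DSS gave -2.43 and -3.24, against -2.95 and -3.06 for WT titled UT. Every array but the 2 of ATF6bKO DSS fell between -3.24 and -2.04. The difference was 2.22 (SE 0.27, 4.67-fold) in ATF6bKO and 0.42 (SE 0.27, 1.34-fold) in ATF6aKO.

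Ido1, which breaks down tryptophan to kynurenine and is a classic interferon gamma target in gut epithelium and dendritic cells, had levels of 3.60 and 4.48 in ATF6bKO DSS, against -2.92 and -1.98 in ATF6bKO UT. In ATF6aKO it had 0.30 and -3.40 with DSS, against -2.80 and -3.74 untreated. The 4 WT arrays were close together at 0.10 and 0.71 for titled DSS, against 0.18 and 0.03 for titled UT. The DSS minus UT difference was 6.49 (SE 0.98, 90-fold) in ATF6bKO. In ATF6aKO the 2 DSS arrays lay apart, so the difference of 1.72 (SE 0.98) became -0.13 without ATF6aKO DSS replicate 1 and 3.57 without ATF6aKO DSS replicate 2.

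Cd274 encodes PD-L1, an interferon-inducible ligand that restrains T cells. It had levels of 0.70 and 1.11 in ATF6bKO DSS, against -0.97 and -0.74 in ATF6bKO UT. In ATF6aKO it had -1.10 and -1.59 with DSS, against -1.58 and -1.32 untreated, and these groups overlapped. WT titled DSS gave -0.74 and -1.06, against -1.39 and -1.93 for WT titled UT. The difference was 1.76 (SE 0.27, 3.38-fold) in ATF6bKO and 0.10 (SE 0.27, 1.07-fold) in ATF6aKO.

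**Figure D2:**
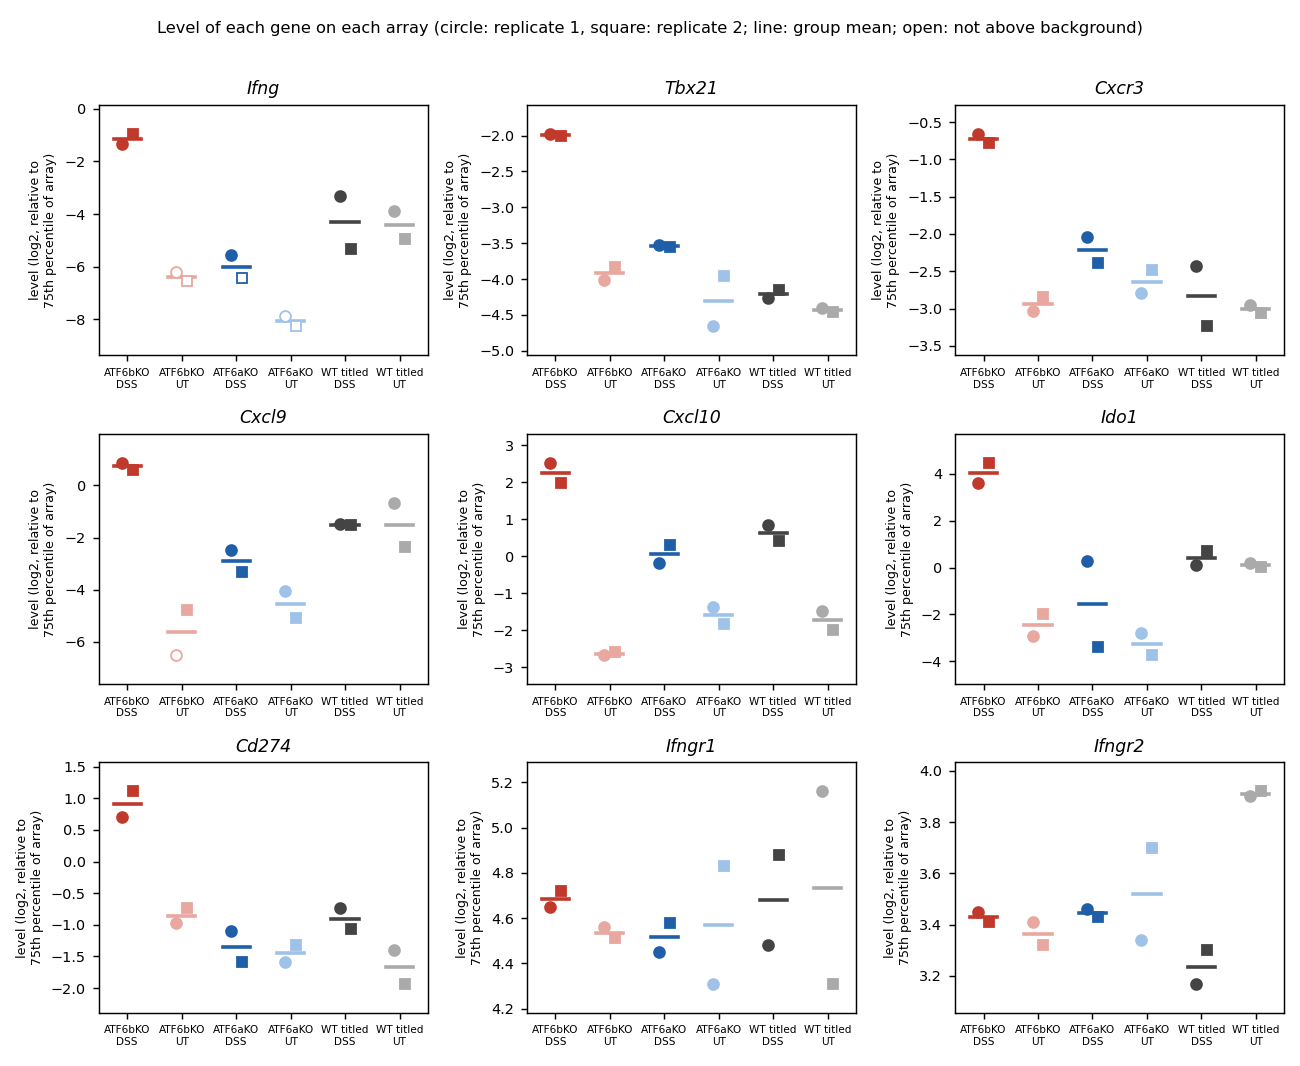
Level of the 9 measured genes (log2, relative to the 75th percentile of the array) on each of the 12 arrays, by group, with circles for replicate 1, squares for replicate 2, a line at the group mean and open symbols where the probe was not above background. The ATF6bKO DSS arrays are the highest of all for 7 genes, and for Ifngr1 and Ifngr2 they lie within the range of the other arrays.

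In ATF6bKO, all DSS arrays lay above all UT arrays for 8 of the 9 genes, Ifngr2 being the exception, whereas 26.4% of all genes tested did so. In ATF6aKO this held for 5 genes (Ifng, Tbx21, Cxcr3, Cxcl9 and Cxcl10), against 36.2% of all genes. Ifng is counted there by its brighter probe, and its repeated probe overlapped between these groups. Since the genes were chosen on these arrays, nothing is read from either count. By title, WT had 3 genes higher without overlap (Cxcl10, Cd274 and Tbx21, against 30.3% of all genes) and Ifngr2 lower (against 34.1%).

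The differences set side by side show how far the knockouts parted. Ido1, Cxcl9, Cxcl10 and Ifng had ATF6bKO differences that exceeded those of ATF6aKO by 4.77 (SE 1.39), 4.71 (SE 0.96), 3.22 (SE 0.42) and 3.14 (SE 0.87). For Cxcr3, Cd274 and Tbx21 the excess was 1.80, 1.66 and 1.15. The excess was 0.20 for Ifngr1 and 0.14 for Ifngr2. That of Ido1 was 2.92 without ATF6aKO DSS replicate 2 and 6.62 without ATF6aKO DSS replicate 1. That of Ifng compares untreated levels below background in both knockouts, so it is neither exact nor a bound, and it was 1.48 with normexp background correction and 3.85 with the mean of its probes. The rule used this contrast, so these values are descriptions with no test. Over all genes, limma called 0 of 23322 in this contrast after adjustment (0%), while 1865 had an unadjusted p under 0.05. The other settings tried gave 0 to 5 calls, and 87 were called without ATF6bKO DSS replicate 1.

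**Figure D3:**
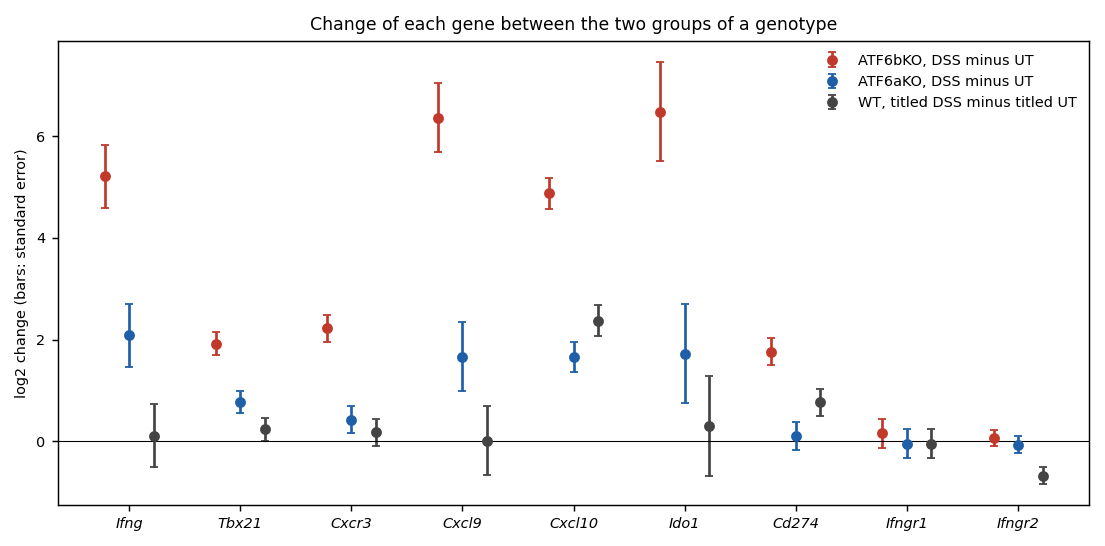
Difference in level (log2, points, with bars of 1 standard error) between the 2 groups of each genotype for the 9 genes, with ATF6bKO left, ATF6aKO in the middle and WT by title on the right. The ATF6bKO differences run from 6.49 for Ido1 to 0.06 for Ifngr2, and those of ATF6aKO do not exceed 2.08.

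The genotypes were also compared over both treatments. These contrasts average in the DSS arrays on which the genes were chosen, so they are no independent support. Their counts and p-values for the chosen genes are therefore descriptions. Between ATF6bKO and ATF6aKO, 4 of the 9 genes were higher in ATF6bKO, against 4.33% of all genes. These were Ifng (3.27, SE 0.44, adjusted p = 0.00956), Cd274 (1.42, SE 0.19, adjusted p = 0.00919), Tbx21 (0.97, SE 0.16, adjusted p = 0.0169) and Ido1 (3.21, SE 0.69, adjusted p = 0.0356), by limma. Among these 4 genes, Cd274 alone had all 4 ATF6bKO arrays above all 4 ATF6aKO arrays, as did 8.64% of all genes. Ifng was above background on 3 of these 8 arrays, and its difference was 1.35 with normexp. Untreated, ATF6bKO and ATF6aKO averaged -0.85 and -1.45 for Cd274, -3.92 and -4.31 for Tbx21, and -2.45 and -3.27 for Ido1. With DSS the gaps were wider, at 0.9 and -1.35, -1.99 and -3.54, and 4.04 and -1.55. Untreated means of Cxcl9, Cxcl10 and Cxcr3 were lower in ATF6bKO than in ATF6aKO. Cxcl9 (1.28, adjusted p = 0.147), Cxcl10 (0.58, adjusted p = 0.136) and Cxcr3 (0.60, adjusted p = 0.0982) did not pass, and neither did Ifngr1 (0.07) or Ifngr2 (-0.08). Ido1 lost its call in 11 of 21 other settings: with no filter, with the replicate block, with only the arrays compared, without the WT arrays and in 7 of the fits that left out 1 array, with an adjusted p of up to 0.12 without ATF6bKO UT replicate 2. Tbx21 lost its call in 4 fits without 1 array, with up to 0.062 without ATF6bKO DSS replicate 2.

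Set against WT over both treatments, where the reading of the WT labels has no bearing, ATF6aKO had 3 of the 9 genes lower, against 28.9% of all genes. The differences were -2.68 for Ifng (SE 0.44, adjusted p = 0.00151), -2.67 for Ido1 (SE 0.69, adjusted p = 0.0124) and -2.22 for Cxcl9 (SE 0.48, adjusted p = 0.00541). Ifng was above background on 1 of the 4 ATF6aKO arrays, so its size there is uncertain, and with normexp it was -0.23 and lost its call (adjusted p = 0.24). ATF6bKO had 3 of the 9 higher than WT, against 24.5% of all genes: Tbx21 (1.36, adjusted p = 0.000325), Cd274 (1.30, adjusted p = 0.000822) and Cxcr3 (1.09, adjusted p = 0.00186). In these contrasts 50.4 and 50.5% of all genes passed in either direction, and genotype here is also slide, so both counts are near what the whole array shows.

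The rest of the pathway was counted in lists of other genes. These lists were drawn up with earlier results of these data known and are read on the same arrays. Their counts and p-values are therefore descriptions and no independent support. Over all genes, 5.7 and 7.21% rose and fell in ATF6bKO, and 2.9 and 3.49% in ATF6aKO, which serves every list. In no list did limma call a gene in the difference between these responses. Of 16 measured genes of interferon gamma signalling, 11 rose with DSS in ATF6bKO and none fell, against 5.7 and 7.21% of all genes. Their median difference was 0.86, against -0.062 over all genes. The feedback inhibitor Socs1 rose by 2.38 (adjusted p = 0.00168) and Ciita, the master regulator of MHC class II, by 2.49 (adjusted p = 0.00679). Irf1 rose by 0.88 (adjusted p = 0.0188), while Jak1 (0.32, adjusted p = 0.353) and Jak2 (0.12, adjusted p = 0.817) did not pass. Irf1 lost its call without any 1 of the 4 ATF6bKO arrays, with an adjusted p of up to 0.097. The count of the list was 6 without either ATF6bKO DSS array and 7 without ATF6bKO UT replicate 1.

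In ATF6aKO, 2 of the 16 rose and none fell, against 2.9 and 3.49% of all genes, with a median of 0.25 against 0.037. One was Socs3, an inhibitor also induced by interleukin 6, which rose by 2.59 (adjusted p = 0.0208) in ATF6aKO and by 2.69 (adjusted p = 0.00923) in ATF6bKO. Without ATF6bKO DSS replicate 1, Socs3 in ATF6bKO had an adjusted p of 0.0503. The ATF6aKO count was 0 without any 1 ATF6aKO array, 4 without either WT titled UT array and 1 without any other array.

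The interferon-inducible GTPases disarm intracellular pathogens and are among the most strongly induced targets of interferon gamma in mice. In ATF6bKO, 15 of the 16 measured rose and 1 fell, against 5.7 and 7.21% of all genes, with a median of 3.14. Iigp1 was at 5.30 and 5.40 in ATF6bKO DSS, against 0.28 and 0.22 in ATF6bKO UT. It rose by 5.11 (SE 0.70, adjusted p = 0.00339), and Tgtp1 by 5.06 (SE 0.61, adjusted p = 0.00213). The exception was Gvin1, a very large GTPase, which fell by 0.95 (adjusted p = 0.0381) with the probe used and was 0.14 higher when its probes were averaged. That call was lost in every fit without 1 array, other than those without a WT titled UT array. These genes have close relatives in the genome, so a probe may read more than 1 of them.

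In the difference between the DSS responses of the knockouts, limma called 0 of the 16 GTPases, while 16 were higher at an unadjusted p under 0.05. In ATF6aKO, 1 of the 16 GTPases rose, Gbp7 by 1.08 (adjusted p = 0.0234), and Gvin1 fell by 2.13 (adjusted p = 0.0048), with a list median of 0.74. The number that rose was 0 without any 1 ATF6aKO array and 3 without either WT titled UT array. In the genotype contrast over both treatments, which averages in the DSS arrays, all 16 were higher in ATF6bKO than in ATF6aKO, against 4.33% of all genes. Their median was 1.44, and Ifi47 was among them (2.07, adjusted p = 0.0132). That count was 3 without ATF6bKO DSS replicate 2 or ATF6bKO UT replicate 2, and 5 to 10 without ATF6bKO DSS replicate 1 or any 1 ATF6aKO array. The summed linear level of the GTPases was 205 and 225 in ATF6bKO DSS, against 28.3 and 30.8 in ATF6bKO UT. In ATF6aKO it was 34.1 and 22.8 with DSS, against 23.8 and 20.2 untreated. The sums of the knockouts were thus much nearer each other untreated than with DSS.

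**Figure D4:**
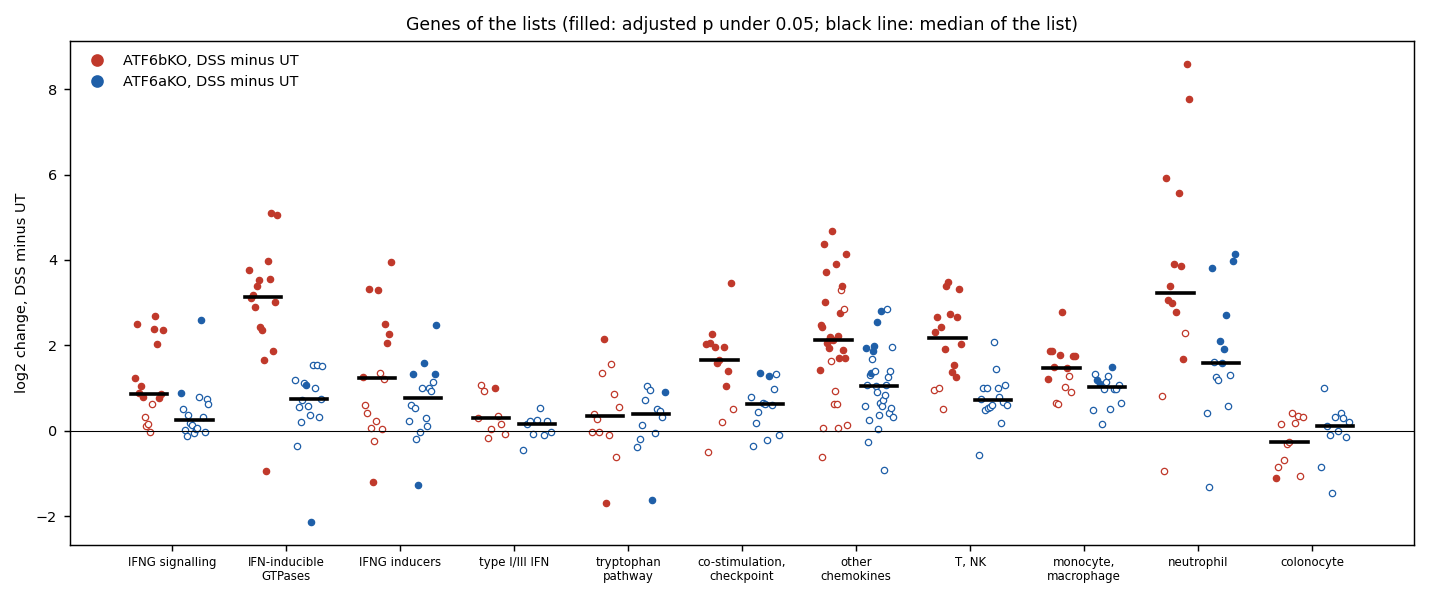
Difference in level between DSS and UT (log2) of each measured gene of 11 lists, with ATF6bKO left and ATF6aKO right in each list, filled where the limma adjusted p is under 0.05, and a line at the list's median. The GTPases centre on 3.14 in ATF6bKO and 0.74 in ATF6aKO, and the genes of type I and III interferon on 0.30 and 0.16.

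Among the genes that induce or modulate interferon gamma, 7 of 16 rose in ATF6bKO and 1 fell. Il12rb1, a chain of the interleukin 12 receptor, rose by 3.33 (adjusted p = 0.00146), and Stat4, which carries its signal, by 2.27 (adjusted p = 0.00317). Il18bp, a decoy that binds interleukin 18 and is itself induced by interferon gamma, rose by 3.30 (adjusted p = 0.0017) in ATF6bKO and by 1.59 (adjusted p = 0.0336) in ATF6aKO. The cytokine Il18 did not pass (0.22, adjusted p = 0.832), and Il15, which sustains NK cells, fell by 1.19 (adjusted p = 0.0202), a call lost without either ATF6bKO DSS array or ATF6bKO UT replicate 1. In ATF6aKO, 4 rose and 1 fell, and the number that rose was 1 without ATF6aKO DSS replicate 1 or either ATF6aKO UT array, and 2 without either ATF6bKO DSS array.

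Genes of type I and III interferon were little represented, since 9 of the 16 listed could be measured. One rose in ATF6bKO, the receptor chain Ifnar2 by 0.99 (adjusted p = 0.0127), and this call was lost without any 1 of the 4 ATF6bKO arrays. In ATF6aKO limma called 0 of the 9, and 1 had an unadjusted p under 0.05. The partner chain Ifnar1 was 0.05 higher in ATF6bKO DSS than in ATF6bKO UT (adjusted p = 0.935).

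Of 12 measured genes of tryptophan use other than Ido1, 1 rose and 1 fell in ATF6bKO, which is close to the share of all genes. Kmo, the next oxygenase after kynurenine, rose by 2.16 (adjusted p = 0.00871, at least 3.25-fold), a call lost without ATF6bKO DSS replicate 1 (adjusted p = 0.0532). Kyat1, an aminotransferase of kynurenine, fell by 1.69 (adjusted p = 0.00251) in ATF6bKO and by 1.63 (adjusted p = 0.00783) in ATF6aKO. Ido2, the paralog beside Ido1, was 1.35 higher in ATF6bKO DSS than in ATF6bKO UT without passing (adjusted p = 0.114). Tph1, which makes serotonin from tryptophan, rose in ATF6aKO by 0.91 (adjusted p = 0.0233), a call lost without any 1 ATF6aKO array. The ATF6aKO call of Kyat1 was lost without ATF6aKO DSS replicate 1 or ATF6aKO UT replicate 2. The number that rose in ATF6bKO was 3 without either WT titled UT array.

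Co-stimulatory and checkpoint genes other than Cd274 had 10 of 13 that rose in ATF6bKO and none that fell, with a median of 1.65. Pdcd1lg2, the other ligand of PD-1, rose by 3.47 (adjusted p = 0.00271), and Cd80, a ligand of CD28 and CTLA-4, by 2.27 (adjusted p = 0.00229, at least 2.25-fold). The count was 5 without either ATF6bKO DSS array, 4 without ATF6bKO UT replicate 1 and 6 without ATF6bKO UT replicate 2. In ATF6aKO, 2 of the 13 rose, Cd86 (1.35, adjusted p = 0.0445) and Lag3 (1.28, adjusted p = 0.0311), and 0 were called without either ATF6bKO DSS array, ATF6aKO DSS replicate 1 or either ATF6aKO UT array, and 3 without either WT titled UT array.

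Other chemokines and receptors numbered 30 measured, of which 20 rose in ATF6bKO (12 without ATF6bKO DSS replicate 2) and 6 in ATF6aKO, with medians of 2.12 and 1.05. Xcl1, a chemokine of activated T and NK cells, rose by 4.14 in ATF6bKO (adjusted p = 0.00229), and Ccl5, a T-cell attractant, by 3.71 (adjusted p = 0.00193). Ccr7, which guides dendritic and T cells, rose by 4.67 (adjusted p = 0.00213) in ATF6bKO and by 2.55 (adjusted p = 0.0337) in ATF6aKO. The neutrophil attractant Cxcl1 rose by 2.81 (adjusted p = 0.0119) in ATF6aKO. The ATF6aKO count was 0 or 1 without any 1 ATF6aKO array, and 11 without either WT titled UT array.

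Markers of immune cells moved beside the interferon genes, and their part in those results was not tested. Of 16 T and NK cell markers, 13 rose in ATF6bKO (8 without ATF6bKO UT replicate 1) with a median of 2.18, and 0 in ATF6aKO, where the median was 0.71 and 8 had an unadjusted p under 0.05. Without either WT titled UT array, 4 rose in ATF6aKO. Cd8a, of cytotoxic T cells, rose by 3.39 (adjusted p = 0.00293) and Gzma by 3.49 (adjusted p = 0.00616). Cd3e (1, adjusted p = 0.0681) and Cd4 (0.50, adjusted p = 0.159) did not pass. In the difference between the responses of the knockouts, limma called 0 of the 16 markers, while 9 were higher at an unadjusted p under 0.05. The summed linear level of the 16 was 5.94 and 5.89 in ATF6bKO DSS, against 1.11 and 1.50 in ATF6bKO UT. It was 3.28 and 2.22 in ATF6aKO DSS, against 1.62 and 1.76 in ATF6aKO UT, and Cd247 and Prf1 were above background on neither ATF6bKO UT array.

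The sum of the monocyte and macrophage markers was 296 and 342 in ATF6bKO DSS, against 111 and 120 in ATF6bKO UT, and 326 and 253 in ATF6aKO DSS, against 114 and 109 in ATF6aKO UT, so the knockouts overlapped. Of 14, 9 rose in ATF6bKO (4 or 5 without any 1 ATF6bKO array) and 3 in ATF6aKO (0 without any 1 ATF6aKO array or either ATF6bKO DSS array, 6 without either WT titled UT array). Neutrophil markers had 11 of 14 that rose in ATF6bKO and 7 in ATF6aKO, with medians of 3.23 and 1.59. S100a8, a subunit of calprotectin, was at least 195-fold higher in ATF6bKO DSS than in ATF6bKO UT, where it was not above background (adjusted p = 0.00144), and rose by 3.97 in ATF6aKO (adjusted p = 0.0305). The ATF6aKO neutrophil count was 1 without ATF6aKO DSS replicate 1 or either ATF6aKO UT array. Dendritic cell markers had 5 of 8 that rose in ATF6bKO (3 without any 1 knockout array) and 2 in ATF6aKO (0 without any 1 ATF6aKO array). B cell markers had 3 of 9 that rose in ATF6bKO (0 without ATF6bKO DSS replicate 1 or ATF6bKO UT replicate 1, 1 without ATF6bKO UT replicate 2). Of 11 colonocyte markers, 1 fell in ATF6bKO, Aqp8 by 1.11 (adjusted p = 0.0396), a call lost in 8 of the 12 fits without 1 array.

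**Figure D5:**
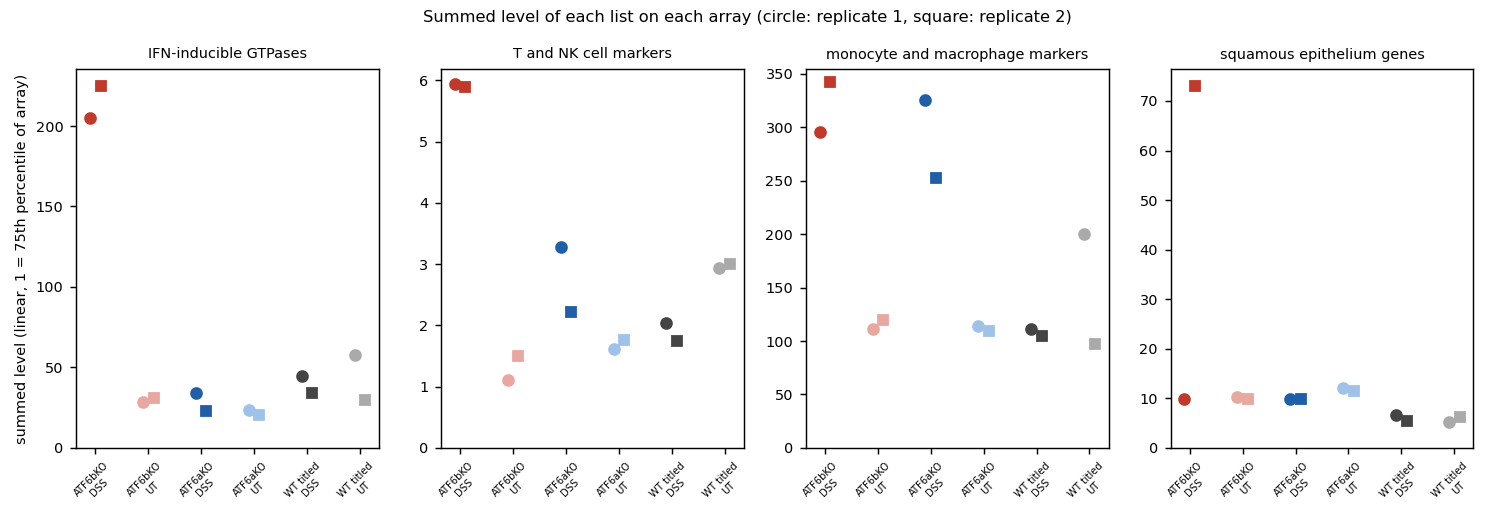
Summed linear level (1 is the 75th percentile of the array) of 4 gene lists on each of the 12 arrays, by group, with circles for replicate 1 and squares for replicate 2. The GTPases reach 205 and 225 on the ATF6bKO DSS arrays, the T and NK cell markers 5.94 and 5.89, and the squamous genes are high on 1 of those 2 arrays only.

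The genes whose pattern over the 12 arrays was most like that of a chosen gene were found by the mean absolute difference of levels after each gene's own mean was removed, over 14445 named genes. For Ifng the nearest were Tgtp1 (0.65), Iigp1 (0.67), Krt6b (0.70), Fpr1 (0.84) and Ifi47 (0.84), where the median over genes was 1.84. For Cxcl9 they were Wfdc12 (0.62), Xcl1 (0.69), Tgtp1 (0.72), Mmp13 (0.82) and Myot (0.83), against a median of 1.85. For Ido1 they were Myot (0.87), Wfdc12 (0.91), Krt6b (0.93), Krt75 (0.96) and Tgtp1 (0.96), against 2.12. Tgtp1 stood in all 3 lists. On the untreated knockout arrays, Ifng, Krt6b, Krt75 and Myot lay below the lowest level well above background. Those levels are signal near background. Krt6b read -3.35 and -0.17 on the ATF6bKO DSS arrays, and Krt75 -6.30 and -1.09, so these keratins were higher on the array that stood apart. The -6.30 lies below the lowest level well above background on replicate 1, -5.85. Myot (-5.41 and -1.39) and Ido1 (3.60 and 4.48) were also higher on replicate 2. Ifng (-1.34 and -0.96) and Iigp1 (5.30 and 5.40) were near equal on both, and Cxcl9 (0.87 and 0.60) was lower on replicate 2.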

How the data were processed

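Scanner output of 12 single-colour arrays was deposited, made with Agilent Feature Extraction 10.7.1.1 per the submitters' processing notes. Per the file headers, each spot has a processed signal, an intensity that the authors' scanner program had corrected for background. The deposited value table holds log2 values, centred per gene (41267 of 41268 probes, within 0.001); how they were scaled is not known from the labels or headers. Its column medians run from -0.47 to 0.24, and 8 columns match the array of another sample. The ATF6aKO columns match the other replicate of their own group, while the WT columns match arrays of the other WT title. The value table therefore served as an alternative only, with each column assigned to the array it matched.

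Control and outlier spots were left out and spots of a probe averaged. Levels are log2 processed signal minus log2 of the array's 75th percentile. A probe was kept if well above background on both arrays of at least 1 group (30428 of 41174), and 1 probe was used per gene. Probes were named by accession through the RefSeq table of GRCm38.p6 (24844, 60.3%). A mean for each of the 6 groups was fitted to all 12 arrays with limma 3.58.1 in R 4.3.3, with Benjamini-Hochberg adjustment over 23322 genes and a threshold of 0.05, in 8 comparisons. For the DSS response in ATF6bKO, a simulated version recovered 22.4% of genes changed by 1 on the log2 scale. It recovered 77.6% at a change of 2 and 97% at a change of 4. The difference between the responses of the knockouts was not simulated. A fold against a group below background is a bound, "at least", against the lowest signal well above background on those arrays. The number of arrays limits the precision.

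The 10 genes and the 13 other gene lists were chosen with earlier results of these data known. Genes named beyond these are a preset set for each list and up to 3 per direction, list and comparison with the largest called change; Cd247, Prf1, Cd86, Il15, Ifnar2 and the genes of the keratin family named for likeness are described for the counts they belong to. Alternatives were normexp background correction (on median spot and background signals, since the mean spot signal is not a column used here, offset 50), quantile normalization, other filters, the mean of a gene's probes, the value table, fewer arrays, the replicate number as a block, and each array left out. One gene of the signalling list is counted in it but not reported singly here.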

Additional observations from a re-analysis of the deposited data

Results flagged for a closer look

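Among the chosen genes and those named by rule, 2 genes of the marker lists had DSS and UT arrays apart in opposite directions in the knockouts. DSS and UT arrays are not paired, and the share of all genes with such opposite directions was not counted. Separation within 1 knockout was common: 26.4% of all genes lay higher with DSS without overlap in ATF6bKO, and 36.2% in ATF6aKO. Car1, a carbonic anhydrase of colonocytes, had a DSS minus UT difference of -0.86 in ATF6bKO and 0.99 in ATF6aKO, so that ATF6bKO minus ATF6aKO was -1.85. Mzb1, a chaperone of antibody-secreting B cells, had differences of 1.47 in ATF6bKO and -0.54 in ATF6aKO, 2.01 apart. These were singled out by the direction of the arrays, and 0 genes passed limma's test of the difference between the knockouts (1865 at an unadjusted p under 0.05), so neither difference is established by a test. None of the 9 measured interferon genes showed such opposite directions.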

How the results depend on the processing

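The counts of genes past the threshold depended on the setting. In ATF6bKO, 8 of the 9 measured interferon genes kept the sign of their DSS difference in every setting that measured them, Ifngr2 (lowest -0.05) being the exception. Since the genes were chosen on these arrays, nothing is read from that. Ifngr1 ran only from 0.08 to 0.19 (SE 0.29 as reported). Ifng and Cxcl9 had no value where a probe had to be well above background on every array. Leaving out each array in turn gave 1095 to 5294 genes for the DSS response in ATF6bKO (lowest without ATF6bKO DSS replicate 2), 183 to 3476 in ATF6aKO (lowest without ATF6aKO DSS replicate 1), 2989 to 10508 in WT by title, 0 to 87 for ATF6bKO minus ATF6aKO response, 758 to 9001 for ATF6bKO minus WT response, 199 to 3657 for ATF6bKO against ATF6aKO, 9091 to 14031 for ATF6aKO against WT and 9266 to 13751 for ATF6bKO against WT. With normexp, ATF6bKO had 1802 calls for DSS and 10114 against ATF6aKO. Quantile normalization gave 5 for the difference between knockouts. Without a filter there were 698 in ATF6aKO, 1496 for ATF6bKO minus WT response and 583 for ATF6bKO against ATF6aKO. Fitting only the arrays compared gave 1828 in ATF6bKO, 566 in ATF6aKO, 639 in WT, 4 for the difference between knockouts, 898 for ATF6bKO minus WT response and 2801 for ATF6bKO against ATF6aKO. Without the WT arrays there were 4628 in ATF6bKO, 2922 in ATF6aKO, 4 and 2801. Taking WT groups by the treatment fields gave 6829 for ATF6bKO minus WT response. The cause was not tested.

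The share of calls that were higher moved by over 10 percentage points for the DSS response in ATF6bKO (54.4% with normexp, 44.2% as reported), in ATF6aKO (56.5% with only the arrays compared, 45.4% as reported) and in WT (62.3%, 46.5%), for ATF6bKO against ATF6aKO (65.7% with quantile, 65.9% with only the arrays compared, 78.9% as reported), for ATF6aKO against WT (60.5% with normexp, 86.5% with the value table, 42.7% as reported) and for ATF6bKO against WT (73.7%, 89.5%, 48.4%). Without 1 array the share ran from 39.7 to 58.6% in ATF6bKO, 23 to 53.2% in ATF6aKO, 63.3 to 87.2% for ATF6bKO against ATF6aKO and 27.5 to 49.7% for ATF6bKO minus WT response (42.9% as reported). The value table placed the median over all genes at 0.563 for ATF6aKO and 0.597 for ATF6bKO against WT.

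Signs turned in these cases, among others. Across settings, Cxcl9 in ATF6bKO against WT (-0.94 as reported) reached 0.28, and Cxcl10 in ATF6aKO against WT (-0.22) reached 0.44. Without 1 array, the WT difference by title (0.1 for Ifng and 0.01 for Cxcl9) reached -0.91 and -0.82. By the treatment fields, the WT differences were -0.76 for Cd274, -2.37 for Cxcl10, 0.68 for Ifngr2 and -0.23 for Tbx21, and Ifngr2 was -0.62 for ATF6bKO minus WT response. With the value table, ATF6aKO against WT was 0.54 for Cd274, 0.49 for Ifngr1 and 0.57 for Ifngr2, and ATF6bKO against WT was 0.55 for Ifngr1 and 0.47 for Ifngr2. With normexp, ATF6bKO against ATF6aKO was 0 for Cd79a and 0.43 for Pdcd1lg2. Gvin1 in ATF6bKO was 0.14 with the mean of its probes, and the Ido1 difference in ATF6aKO lay between -0.13 and 3.57 when single arrays were dropped. Differences near 0 turned too: without 1 array, Cd274 in ATF6aKO reached -0.15, Ifngr1 and Ifngr2 in ATF6aKO 0.21 and 0.11, and their excess in ATF6bKO over ATF6aKO -0.06 and -0.04; Ifngr1 and Ifngr2 in ATF6bKO against ATF6aKO reached -0.08 and 0.42. Normexp narrowed the ATF6bKO differences to 1.94 for Ifng, 3.23 for Cxcl9, 3.67 for Cxcl10, 1.38 for Cxcr3, 0.94 for Tbx21 and 1.40 for Cd274, and the excess over ATF6aKO to 0.51 for Tbx21, 1.08 for Cxcr3 and 2.46 for Cxcl9.

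Same-numbered arrays had correlations of deviations between -0.22 and 0.15 over 15 pairs of groups, with 2 over 0.1, so they share only a number. With that replicate block there were 2664 calls in ATF6bKO, 1231 in ATF6aKO, 6768 in WT, 0 for the difference between knockouts, 2684 for ATF6bKO minus WT response, 864 for ATF6bKO against ATF6aKO, 11349 for ATF6aKO against WT and 11300 for ATF6bKO against WT. With Ifng below background in the untreated knockouts, its ATF6bKO difference is a bound and its ATF6aKO difference sets no fold. Its excess in ATF6bKO over ATF6aKO is neither exact nor a bound.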
